A study of Laccaria bicolor with 4 samples.

Results

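The dominant transcripts of Laccaria bicolor mycelium were chosen by TPM, the length-corrected abundance of a gene scaled to a total of 1000000 in each library, as the genes with 1000 or more in each of 4 libraries. The rule found 102 of 23125 annotated genes, 0.441% of all genes and 0.675% of the 15107 genes with a mean TPM above 0.05, which are called expressed here. Because the genes were selected on TPM, their levels and their share of all TPM are given as a description without a test. The libraries were made from mycelium of the strain S238N-H82, a wild-type strain grown for 8 weeks and collected from liquid medium. For 2 libraries the mycelium was given vitamin C at 5 mM in an incubation of 2 days, and the other 2 were from untreated mycelium. Libraries of a condition are described as biological replicates by the submitters, without saying which cultures they came from, so that the p-values below measure the spread between these libraries.

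L. bicolor is a basidiomycete that forms ectomycorrhizal symbiosis with tree roots, and its mycelium is the network of hyphae through which it feeds and grows. In growing eukaryotic cells a small set of genes usually supplies a large part of the messenger RNA, typically those of ribosomal proteins, translation factors, histones, chaperones and enzymes of central metabolism. Fungal mycelium is also known for abundant transcripts of hydrophobins, small secreted proteins that coat the hyphal surface. RNA depleted of ribosomal RNA, as used here, also keeps transcripts without a polyA tail. Vitamin C, the agent of the comparison, is a reducing agent that helps TET and related dioxygenases keep their iron active. Identifiers were not paired with gene names, so no product is assigned to any gene, and genes are given by position on the V2 genome.

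Vitamin C replicate 1 stood apart in depth. The ratio of coverage to FPKM, a value scaled by length and by aligned bases, put the aligned bases at 5.65 and 4.27 Gb with vitamin C and at 4.20 and 4.40 Gb in untreated mycelium. The mean read depth over the least covered of them was 3582 and 3133 with vitamin C and 2940 and 2836 in untreated mycelium, while the median expressed gene had a depth of 55.6 and 37.0 with vitamin C and 38.8 and 45.7 in untreated mycelium. The coverage values are not counts, so no counting interval is given.

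The 102 dominant genes held between 21.3% and 24.1% of all TPM. Vitamin C replicates 1 and 2 gave a share of 21.3% and 24.0%, against 24.1% and 23.0% for untreated replicates 1 and 2, so that the values of the conditions overlapped. The mean was 22.6 ± 1.97% with vitamin C and 23.5 ± 0.744% in untreated mycelium (SD, n = 2 each). The difference was −0.889 percentage points, within the spread of the vitamin C libraries, and is given without a test. Without vitamin C replicate 1 the difference was 0.507 percentage points, with the opposite sign. The order of the 4 libraries by share, from lowest to highest, was the reverse of their order by aligned bases, and the part of depth in the share was not tested. Weighted by span, as coverage times the distance from the first to the last base of the model, the same genes held 18.2% and 21.0% with vitamin C and 21.2% and 20.3% in untreated mycelium. This span can include introns, so the weighted value is not a share of the sequenced bases.

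**Figure D1:**
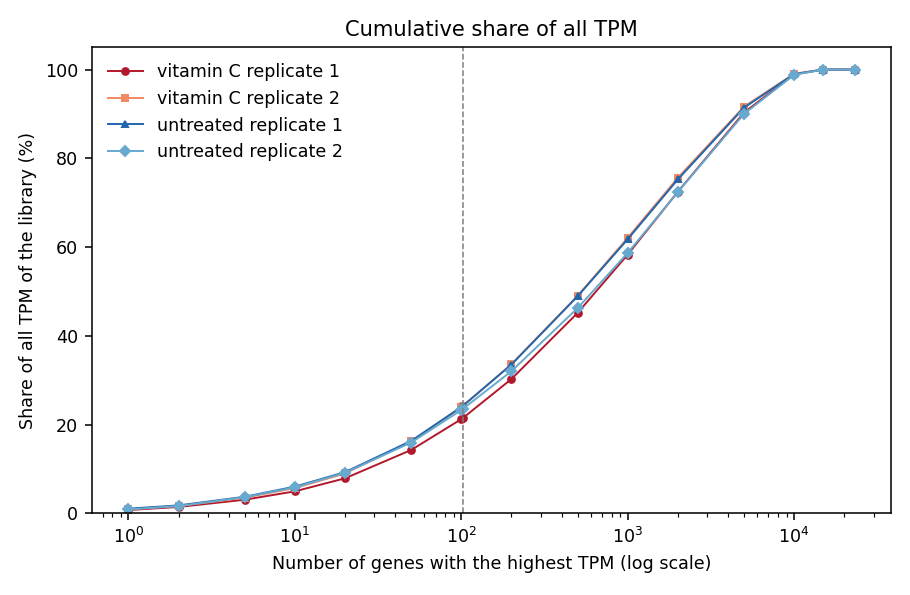
Share of all TPM in percent held by the genes with the highest TPM of each library, against the number of genes on a log scale, with a line per library and a dashed line at 102 genes. At 102 genes vitamin C replicate 1 reached 21.4%, below the 23.5% to 24.2% of the other libraries, and the gap widened up to 500 genes only relative to vitamin C replicate 2 and untreated replicate 1.

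The dominance was spread over many genes rather than held by a few. The highest gene alone took 0.731% and 0.894% of TPM with vitamin C and 1.04% and 0.868% in untreated mycelium. The 10 dominant genes with the highest mean TPM together held 4.86% and 5.65% with vitamin C, against 5.98% and 5.79% in untreated mycelium. Beyond the dominant set, the 500 highest genes of each library held 45.2% and 49.0% of TPM with vitamin C and 48.9% and 46.2% in untreated mycelium. Within the set, the median level was 1765 and 1967 TPM with vitamin C and 1904 and 1796 TPM in untreated mycelium. A level of 5000 TPM was reached by 5 and 6 of the genes with vitamin C and by 6 and 5 in untreated mycelium.

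Vitamin C replicate 1 and untreated replicate 2 differed from the other libraries in how TPM was spread over levels. Relative to the mean of the 4 libraries on the log2(TPM + 1) scale, the median dominant gene was at −0.11 and 0.06 in the vitamin C libraries and at 0.06 and −0.04 in the untreated libraries. Among the 6852 genes with a mean of 10 to 100 TPM the order turned round, with medians of 0.11 and −0.09 with vitamin C and −0.10 and 0.10 in untreated mycelium. In both conditions the library with the lower level of dominant genes thus had the higher level of genes with a mean of 10 to 100 TPM. Among the 1845 genes with a mean of 100 to 1000 TPM the medians were 0.031 and 0.018 with vitamin C. They were 0.002 and −0.040 in untreated mycelium, where the order did not turn round. TPM sums to the same total in each library, so a shift in one group of genes is measured relative to the others.

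**Figure D2:**
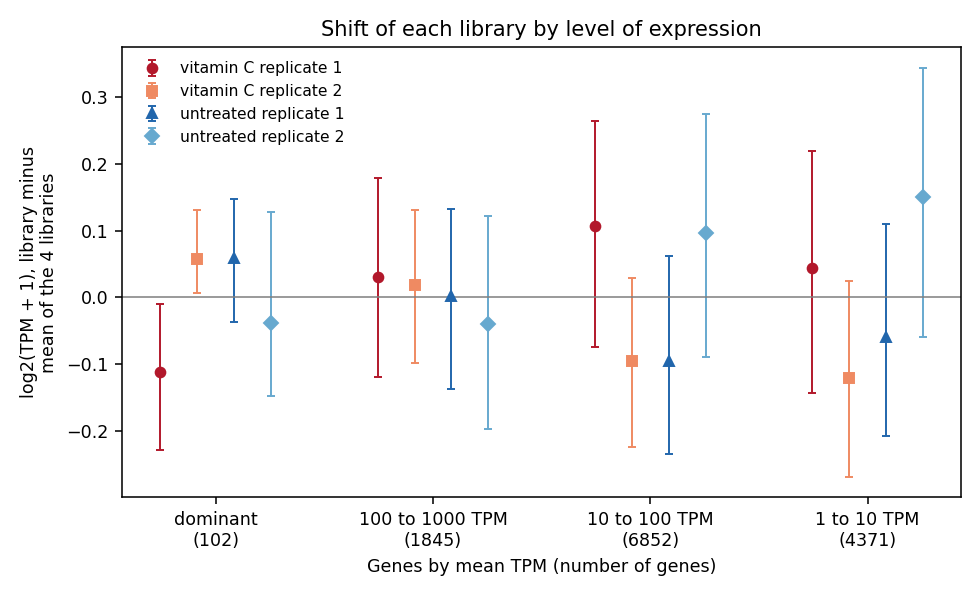
Difference of log2(TPM + 1) in a library from the mean of the 4 libraries, by level of expression, with points for the median and bars for the interquartile range over genes. Vitamin C replicate 1 and untreated replicate 2 lay below 0 for dominant genes and above 0 for genes of 1 to 100 TPM.

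The highest transcript was the same in the 4 libraries. It came from a 1015-bp gene on the minus strand of scaffold 17 from 374157 to 375171, with 7306 and 8944 TPM with vitamin C and 10366 and 8679 TPM in untreated mycelium. The next place was taken in vitamin C replicate 1 by a gene on the minus strand of linkage group 4 from 3095632 to 3096944. It had 6896 and 7142 TPM with vitamin C and 6874 and 7056 TPM in untreated mycelium, among the steadiest levels of the set. In the other 3 libraries that place was taken by a 292-bp gene on the plus strand of scaffold 29 from 35888 to 36179. This gene had 5147 and 7362 TPM with vitamin C and 7328 and 7630 TPM in untreated mycelium, so that vitamin C replicate 1 was below its 3 other values. The gene on the minus strand of scaffold 11 from 808885 to 810319 was again nearly level, at 6170 and 6391 TPM with vitamin C and 6402 and 6329 TPM in untreated mycelium.

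Of the other 6 genes among the 10 highest, 2 lay on linkage group 9, both on the minus strand and both with lower values in each vitamin C library than in each untreated library. The gene from 622878 to 623601 had 4552 and 5075 TPM with vitamin C and 6201 and 6753 TPM in untreated mycelium. The gene from 1861293 to 1862408 had 3231 and 3621 TPM with vitamin C and 4398 and 4382 TPM in untreated mycelium. A gene on the plus strand of linkage group 3 from 4160331 to 4161949 stood the other way, at 5036 and 5084 TPM with vitamin C and 4744 and 4681 TPM in untreated mycelium. A gene of 627 bp on the plus strand of linkage group 7 from 745056 to 745682 was the most variable of the 10, at 2989 and 4582 TPM with vitamin C and 5923 and 4624 TPM in untreated mycelium. A gene of scaffold 11 from 1873397 to 1876099 on the plus strand had 3958 and 4447 TPM with vitamin C and 3960 and 4228 TPM in untreated mycelium. The last of the 10, on the plus strand of linkage group 2 from 1613460 to 1615885, had 3296 and 3855 TPM with vitamin C and 3575 and 3519 TPM in untreated mycelium. For both of these genes the values of the conditions overlapped.

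**Figure D3:**
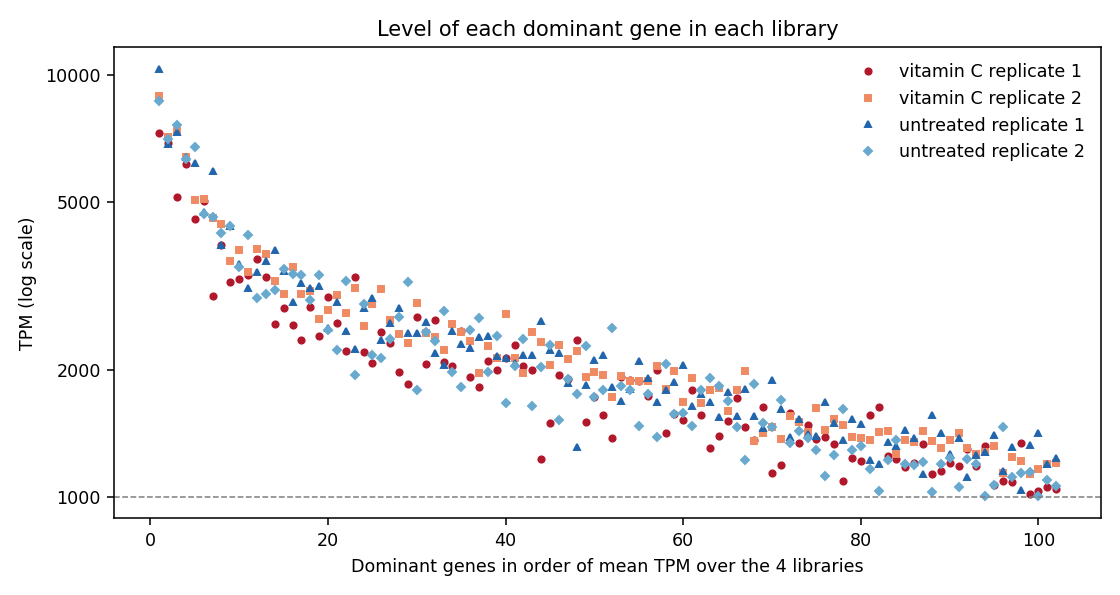
TPM of each of the 102 dominant genes in each library on a log scale, in order of mean TPM, with a dashed line at the 1000 TPM of the rule. The first gene was highest in untreated replicate 1, at 10366 TPM, and vitamin C replicate 1 was the lowest library for 53 of the genes.

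At the lower edge the set passed without a gap into the genes just outside it. The lowest value of a member was 1003 TPM, in untreated replicate 2, for a gene on linkage group 2 from 532696 to 533559. Lowest values of 1004 and 1015 TPM followed, for the genes on linkage group 2 from 4453422 to 4454696 and on linkage group 3 from 3603815 to 3604615. Just outside were genes with a lowest value of 998 TPM on linkage group 7 from 1711820 to 1713047, 994 TPM on linkage group 6 from 1757846 to 1758606 and 984 TPM on linkage group 4 from 66719 to 68014. A further 62 genes reached 1000 TPM in some libraries only, 23 in 1 library, 23 in 2 and 16 in 3. Of these, 10 reached it in both vitamin C libraries and neither untreated library, and 1 in both untreated libraries and neither vitamin C library. The other genes at 1000 TPM in 2 libraries crossed the conditions, 5 in vitamin C replicate 1 and untreated replicate 2, 5 in vitamin C replicate 2 and untreated replicate 1, and 2 in vitamin C replicate 2 and untreated replicate 2. In all, 130 and 141 genes reached 1000 TPM with vitamin C and 129 and 125 in untreated mycelium. Over all genes tested, both vitamin C values were above both untreated values for 21.0% and below both for 24.9%. The split by condition at the threshold was not tested.

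The order of the dominant genes was largely kept between libraries. Across the 102 genes, Spearman's rho reached 0.94 for the pair of vitamin C libraries and 0.90 for the untreated pair, and it ranged over 0.83 to 0.93 for the 4 pairs across conditions. This was not particular to the set. For the 1845 genes with a mean of 100 to 1000 TPM outside it, rho was 0.95 and 0.92 for the same pairs and 0.85 to 0.92 across conditions. These are descriptions across genes, which are not independent replicates, and each library enters 3 pairs. Of the set, 7 genes were among the 10 highest of each library, 14 among the 20 highest and 83 among the 100 highest. The lowest rank of a dominant gene was 126 and 113 in the vitamin C libraries and 123 and 125 in the untreated libraries. The median shift of rank was 7 for the vitamin C pair and 10.5 for the untreated pair, and 7 to 11 over the 6 pairs of libraries.

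Levels varied little over the libraries, by a median coefficient of variation of 12.0% over the 4 values. The highest value was at most 1.5 times the lowest for 87 of the 102 genes, and more than 2 times for 1 gene. The rule itself limits the spread, since a gene near 1000 TPM left the set when a library was lower. The steadiest were the genes on scaffold 11 from 808885 and on linkage group 4 from 3095632, with coefficients of variation of 1.69% and 1.85%. The next was a gene on linkage group 1 from 10161535 to 10162359, with 1893 and 1885 TPM with vitamin C and 1800 and 1795 TPM in untreated mycelium, which varied by 2.87%. The log2 ratio of the vitamin C pair had an SD over genes of 0.18 and that of the untreated pair 0.25, against 0.24 and 0.37 for the 1845 genes with a mean of 100 to 1000 TPM outside the set. That class was chosen by mean TPM only, so the smaller SD of the dominant genes is in part set by the rule. For the 200 genes with the highest mean TPM the SDs were 0.24 and 0.30. For the 164 genes at 1000 TPM in at least 1 library they were 0.25 and 0.33.

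The largest shifts of rank within a condition involved a gene of linkage group 7 and 3 genes on linkage groups 8, 2 and 1. The gene of linkage group 7 from 777468 to 778094 had rank 88 and 37 in the vitamin C libraries, with 1232 and 2332 TPM, and rank 24 and 42 in the untreated libraries, with 2617 and 2033 TPM. It was the gene with more than a 2-fold range, 2.13-fold. In the untreated libraries the gene of linkage group 8 from 1414850 to 1416462 moved between rank 69 and 120, with 1563 and 1029 TPM. The gene of linkage group 2 from 532696 moved between 79 and 125 in those libraries, and that of linkage group 1 from 355350 to 356290 between 63 and 106. For these 3 genes the vitamin C values, at 1135 and 1356, 1031 and 1162, and 1386 and 1441 TPM, lay between the untreated values.

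No dominant gene passed the test of vitamin C against untreated mycelium. The rule used the same libraries and left out genes below its threshold in any of them. Genes that crossed the threshold between conditions were thus not in the set. For this reason the test cannot show whether dominant genes change less than others. In limma over the 15107 expressed genes, 0 of the 102 had a Benjamini-Hochberg adjusted p under 0.05. The lowest adjusted p among them was 0.267. Over all genes tested 14 were called, a background of 0.0927%. At so low a background, 0 calls among 102 genes do not set them apart from other genes. At an unadjusted p under 0.05 there were 4 higher and 3 lower dominant genes, 3.92% and 2.94%, against 4.98% and 8.13% of all genes tested. Both vitamin C values were above both untreated values for 25 genes, 24.5% against 21.0% of all genes tested, and below both for 22 genes, 21.6% against 24.9%. The shares without overlap were within 4 percentage points of the background, and the share of lower genes at an unadjusted p under 0.05 was below it. The median change was −0.03 on the log2(TPM + 1) scale, with an interquartile range of −0.20 to 0.10, beside a median of −0.02 over all genes tested. The range of changes over the dominant genes was −0.50 to 0.63, with a median standard error of 0.17. This range is in part set by the rule. With 2 libraries per condition, a change of 2-fold was rarely recovered in simulated data, 4 of 67 genes, so that changes of this size were mostly not detectable.

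Higher values with vitamin C were most marked for a pair of genes. The gene on linkage group 1 from 7811836 to 7813381 (gene_3514) had 3332 and 3130 TPM with vitamin C and 2238 and 1945 TPM in untreated mycelium. The change was 0.63 with a standard error of 0.16 and a limma adjusted p of 0.267. The gene on linkage group 4 from 938306 to 939448 (gene_11982) had 2356 and 2219 TPM with vitamin C and 1313 and 1756 TPM in untreated mycelium, a change of 0.59 with a standard error of 0.18 and a limma adjusted p of 0.310. Without untreated replicate 1 it was 0.38. In neither gene did the conditions overlap, and these were the changes of the set beyond 0.5 in size. They were followed by 2 genes on linkage group 1. The gene from 4717626 to 4719397 had 1633 and 1422 TPM with vitamin C and 1200 and 1034 TPM in untreated mycelium, and that from 3337848 to 3339446 had 2000 and 2049 TPM with vitamin C and 1677 and 1387 TPM in untreated mycelium. The change of the last was 0.41, and 0.27 without untreated replicate 2.

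Among the dominant genes without overlap between conditions, lower values with vitamin C were most marked for 4 genes, of which 3 were shorter than 1000 bp. For the 627-bp gene on linkage group 7 from 745056 (gene_16937) the change was −0.50 with a standard error of 0.24 and a limma adjusted p of 0.428. It was −0.19 without vitamin C replicate 1, −0.81 without vitamin C replicate 2, −0.32 without untreated replicate 1 and −0.31 after quantile normalization. The gene of scaffold 29 from 41634 to 42443 (gene_27301) had 1376 and 1729 TPM with vitamin C and 1827 and 2522 TPM in untreated mycelium, a change of −0.48 with a standard error of 0.21 and a limma adjusted p of 0.390. It was −0.31 without vitamin C replicate 1 and −0.24 without untreated replicate 2. A gene on linkage group 5 from 2255248 to 2257925 had 1853 and 2317 TPM with vitamin C and 2452 and 3232 TPM in untreated mycelium, a change of −0.44 that was −0.28 without vitamin C replicate 1 and −0.24 without untreated replicate 2. For the gene on linkage group 9 from 622878 the change was −0.43 with a standard error of 0.17, and −0.22 after quantile normalization. In these 4 genes the vitamin C values lay below the untreated values, and the lowest value of each was in vitamin C replicate 1. The gene of linkage group 7 from 777468 had a change of −0.44 as well, but its values overlapped between conditions.

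The sign of the change went with the span of the gene, from the first to the last base of the model. Among the 34 shortest dominant genes, of 204 to 883 bp, the median change was −0.15, with 4 genes whose vitamin C values were both higher and 11 whose values were both lower. Among the 34 of middle span, 895 to 1428 bp, the median was −0.01 with 7 in each direction. Among the 34 longest, of 1431 to 6077 bp, the median was 0.07, with 14 both higher and 4 both lower. Over all genes tested, whatever their span, 21.0% were both higher and 24.9% both lower, and these shares were not computed by span. The gradient was steepest for vitamin C replicate 1 against untreated replicate 1, with median log2 ratios of −0.33, −0.16 and −0.04 in order of rising span. It was slight for vitamin C replicate 2 against untreated replicate 2, with medians of 0.06, 0.11 and 0.10. It was also seen between the vitamin C libraries themselves, where replicate 1 minus replicate 2 had medians of −0.28, −0.12 and −0.12. Between the untreated libraries, replicate 1 minus replicate 2 had medians of 0.21, 0.10 and 0.04. Other expressed genes showed the tendency too. Over the 4 pairs across conditions, Spearman's rho of span with the log2 ratio was 0.14 to 0.53 across the dominant genes. It was 0.19 to 0.39 across the 1845 genes of 100 to 1000 TPM and 0.12 to 0.32 across the 6852 genes of 10 to 100 TPM. These are descriptions over pairs that share libraries. In each of these classes rho was highest for vitamin C replicate 1 against untreated replicate 1 and lowest for vitamin C replicate 2 against untreated replicate 2. Span thus went with differences between libraries of the same condition as well, and its part in the comparison of conditions was not tested.

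**Figure D4:**
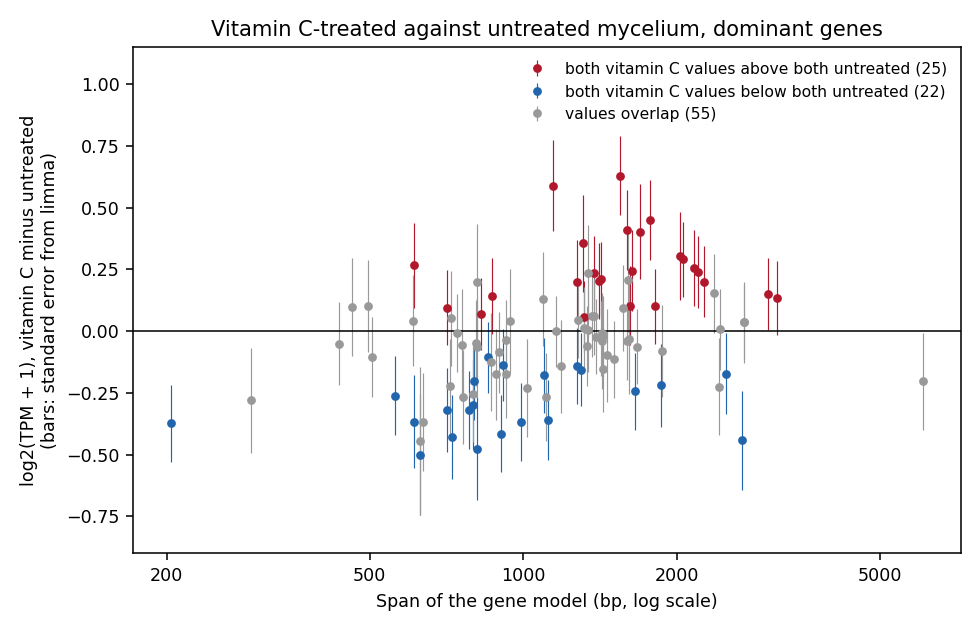
Change of each dominant gene, vitamin C minus untreated on the log2(TPM + 1) scale, against the span of its model in bp on a log scale, with bars for the standard error from limma. Red points, with both vitamin C values higher, lay mostly above 1000 bp, and blue points, with both lower, were most frequent below it, while the changes stayed between −0.50 and 0.63.

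Dominant genes had a median span of 1278 bp, with an interquartile range of 809 to 1602 bp, beside 1377 bp for the 15005 other expressed genes and 1259 bp for those with a mean of 100 to 1000 TPM. Spans of up to 500 bp made up 5 genes, 4.90% against 12.0% of other expressed genes and 7.75% of those at 100 to 1000 TPM. Spans from 2000 bp made up 15 genes, 14.7% against 29.5% and 23.5% in the same classes, and these differences were not tested. The shortest was a model of 204 bp on the plus strand of linkage group 3 from 2611556 to 2611759, with 1190 and 1373 TPM with vitamin C and 1619 and 1695 TPM in untreated mycelium. A 292-bp gene on scaffold 29 and a 435-bp gene on linkage group 3 from 7638971 to 7639405 came next. The longest were a 6077-bp model on scaffold 29 from 62108 to 68184, a 3142-bp model on linkage group 1 from 4606903 to 4610044 and a 3012-bp model on linkage group 10 from 1135258 to 1138269. The first of these had 2220 and 2733 TPM with vitamin C and 2480 and 3246 TPM in untreated mycelium. Both strands carried dominant genes, 56 on the plus and 46 on the minus strand, 54.9% plus against 49.4% of other expressed genes.

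The dominant genes were spread over the genome, with a few places of high density. They lay on 18 of the 54 sequences of the assembly, namely the 10 linkage groups, with 81 genes, and 8 other scaffolds, with 21. The share on linkage groups was 79.4%, beside 79.1% of other expressed genes. Linkage group 1 had the most, 22, followed by linkage groups 3 and 9 with 11 each. For linkage group 9 this was 1.75% of its expressed genes, against 0.675% over the genome. The same share was 1.14% for linkage group 7 and 2.59% for scaffold 17, which had 3 dominant genes. Scaffold 29 had 7 dominant genes among its 17 genes, or 41.2%, and scaffold 33 had 1 among 6, or 16.7%. Only 2 of the 27 sequences whose last gene ended before 100 kb held a dominant gene, scaffolds 29 and 33.

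Most genes of scaffold 29 were highly expressed. Of its 17 genes, 15 had at least 100 TPM in each library, and the 17 together held 1.70% and 2.36% of all TPM with vitamin C and 2.22% and 2.56% in untreated mycelium. Besides the genes of 292 bp and 6077 bp, the dominant ones lay from 30238 to 30954, from 41634 to 42443, from 44471 to 45232, from 46684 to 48554 and from 50255 to 52668. Those of the last 3 positions had 1505 and 1921, 1394 and 1815, and 1090 and 1485 TPM with vitamin C, against 1838 and 2276, 1546 and 1829, and 1367 and 1618 TPM in untreated mycelium. An exception lay between dominant genes, from 40968 to 41268, with 2.2 and 21.0 TPM with vitamin C and 3.2 and 2.4 TPM in untreated mycelium. The other genes of the scaffold included 2 that reached 1000 TPM in some libraries but not in vitamin C replicate 1. The gene from 21782 to 22549 had 636 and 1012 TPM with vitamin C and 1146 and 1031 TPM in untreated mycelium, and that from 56489 to 57505 had 730 and 1034 TPM with vitamin C and 858 and 1063 TPM in untreated mycelium.

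The genes of scaffold 29 differed between libraries in the same direction. All 7 dominant genes were lowest in vitamin C replicate 1 and highest in untreated replicate 2, a pattern shown by 15 of the 95 other dominant genes, and the values of the conditions did not overlap for 1 of the 7. Each of the 7 was also higher in untreated replicate 2 than in untreated replicate 1, against 30 of the 95 others. The whole scaffold was less uniform. Of its 17 genes, 16 were lowest in vitamin C replicate 1, 10 were highest in untreated replicate 2 and 14 were higher in untreated replicate 2 than in untreated replicate 1. Scaffold 33, with 6 genes that all had at least 100 TPM in each library, showed the same low library for each of its genes. Its dominant gene, on the plus strand from 978 to 1789, had 2560 and 3506 TPM with vitamin C and 2902 and 3382 TPM in untreated mycelium. Among the 43 sequences with at least 5 genes, 3 had every gene expressed, and scaffolds 29 and 33 were 2 of them. Which compartment of the cell a scaffold belongs to was not given in the sources used here, and these genes were compared without their sequence.

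**Figure D5:**
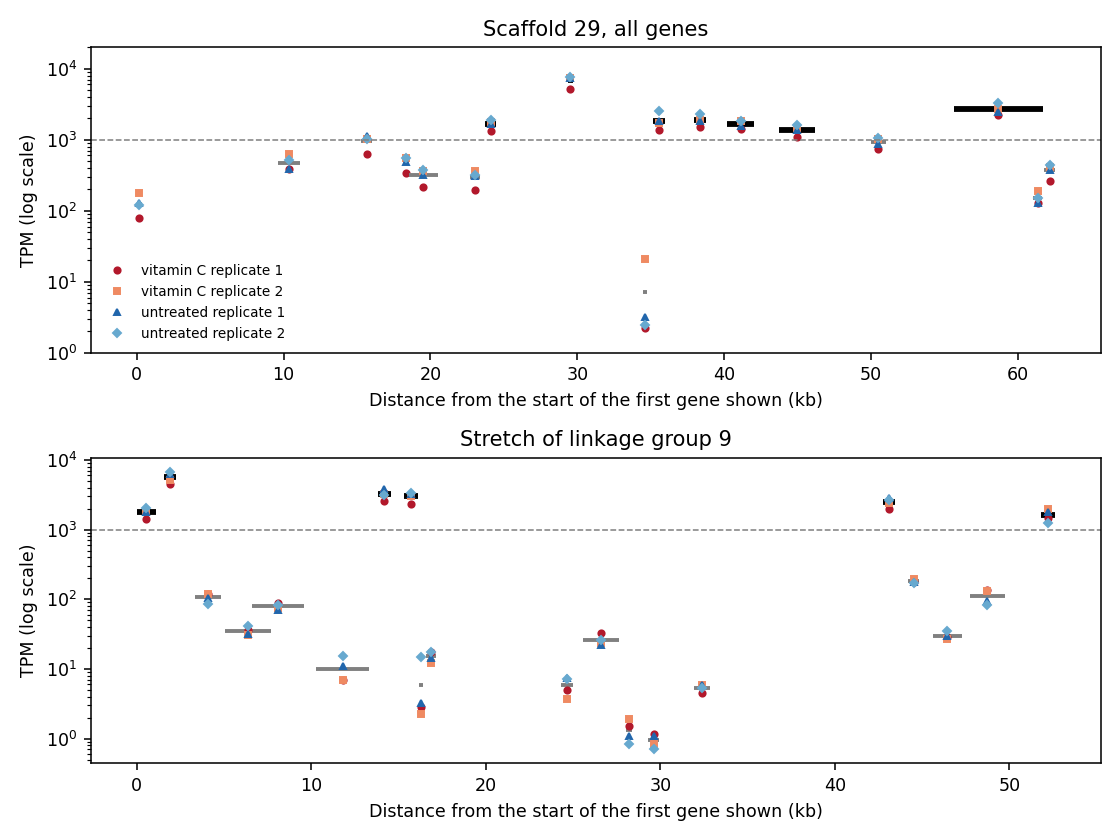
TPM on a log scale along scaffold 29 and along a stretch of linkage group 9, against distance in kb from the start of the first gene shown. Horizontal bars mark the extent and mean TPM of each model, black for dominant genes and grey for others, points mark the 4 libraries, the dashed line is at 1000 TPM, and genes with a mean of 0.05 TPM or less are not drawn. On scaffold 29 nearly every gene was above 100 TPM, whereas on linkage group 9 the 6 dominant genes stood among genes of 0 to 181 TPM.

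On linkage group 9, 6 dominant genes lay within 52.6 kb, from 621333 to 673960, among 22 genes. In contrast to scaffold 29, most of the 16 genes between them were far below the dominant genes, with 13 under 100 TPM on average and the highest at 181 TPM. The median of their means was 12.7 TPM over all 16, including genes that were not expressed. The 6 genes held 1.43% and 1.76% of all TPM with vitamin C and 1.97% and 1.92% in untreated mycelium. The 2 first of them were 439 bp apart on the minus strand, the gene from 621333 to 622438, with 1421 and 1801 TPM with vitamin C and 1793 and 2066 TPM in untreated mycelium, and the gene from 622878 described above. The next 2 were a divergent pair of equal span, 795 bp each, from 635134 to 635928 on the minus strand and from 636631 to 637425 on the plus strand, 702 bp apart. They had similar levels, 2573 and 3261 TPM with vitamin C and 3845 and 3103 TPM in untreated mycelium for the first, and 2357 and 3037 TPM with vitamin C and 3218 and 3359 TPM in untreated mycelium for the second. The remaining 2, from 664082 to 664789 and from 673150 to 673960 on the minus strand, had 1981 and 2433 and 1463 and 1986 TPM with vitamin C, against 2799 and 2678 and 1802 and 1223 TPM in untreated mycelium.

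A pair of dominant genes on the plus strand of linkage group 7, from 745056 and from 777468, had the same span of 627 bp. Both were lowest in vitamin C replicate 1 and highest in untreated replicate 1. In each, the neighbouring model upstream ended 19 bp before the start. A further model of 627 bp with the same 19-bp gap, from 789354 to 789980, was listed at 0 in the 4 libraries. Of the 22 models of this span in the genome these 3 alone had that gap, 9 were listed at 0 in each library, and the highest outside the pair had a mean of 28.0 TPM. From the first to the last of these 3 models there were 14 genes, of which 10 were listed at 0 in each library. Where models are near-identical copies, reads may be split among them in ways that the sources used here do not state, so the levels of this pair and of the equal-span pair on linkage group 9 are uncertain to that extent. Equal span does not establish that genes are copies, and sequences were not compared.

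The gene with the highest level also had genes listed at 0 nearby. Between it and the next dominant gene of scaffold 17, from 351642 to 354135 on the minus strand, lay 4 genes listed at 0 in each library. That gene had 2070 and 2445 TPM with vitamin C and 2603 and 2467 TPM in untreated mycelium. In all, 5 dominant genes had an average under 1 TPM in both adjacent genes, among them both 627-bp genes, and 2 had adjacent genes that were both not expressed. More often the surroundings were active. The genes next to a dominant gene had a median of 27.7 TPM, and 20.9% of them had at least 100 TPM, against a median of 12.4 TPM and 11.7% for the genes next to other expressed genes. Genes with a mean of 100 to 1000 TPM had similar neighbours, with a median of 22.8 TPM and 19.2% at 100 TPM or more.

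No dominant gene shared a position with another. Within 5 kb of another dominant gene lay 10 of the 102, or 9.80%, against 2.92% of other expressed genes with a dominant gene as near. They formed 4 groups, of which 2 were pairs on linkage group 9 and 2 lay on scaffold 29, so that 4 genes remained without scaffolds 29 and 33. The 6 directly adjacent pairs comprised 3 on the same strand, 2 divergent and 1 convergent pair, with gaps of 439 to 4933 bp.

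Overlap with a gene model outside the set was found for 13 of the 102 genes or 12.7%, near the 15.0% of all genes. The share was 20.2% for other expressed genes and 17.8% for those with a mean of 100 to 1000 TPM, and these differences were not tested. There were 15 overlapping pairs, 8 on opposite strands and 7 on the same strand, which shared 34 to 1493 bp. The partner was always much weaker, with a mean of at most 247 TPM, and the mean of the dominant gene was at least 7.90 times that of its partner. The 204-bp gene of linkage group 3 lay wholly inside a model of 820 bp on the opposite strand, which had 53.0 and 52.1 TPM with vitamin C and 67.1 and 63.3 TPM in untreated mycelium. On scaffold 29, a model of 585 bp from 67545 to 68129 lay inside the 6077-bp gene on the same strand, with 129 and 193 TPM with vitamin C and 127 and 152 TPM in untreated mycelium. The gene on linkage group 5 from 2255248 shared 1493 bp with a model on the opposite strand, whose mean over the 4 libraries was 19.7 TPM. The setting of the quantification for strand was not given in the sources used here, so reads of the 2 genes of such a pair may not have been told apart, and the level of the weaker partner is uncertain.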

How the data were processed

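Total RNA longer than 200 nt, depleted of ribosomal RNA, was sequenced from stranded libraries of 4 mycelium samples. Reads were trimmed by the authors (BBDuk), aligned to the V2 genome (hisat2), freed of duplicates (samtools markdup) and assigned to genes by StringTie. FastQC, HISAT2 and SAMtools are named in the processing notes of the submitters. Removal of duplicates also discards separate molecules that share both ends, and its effect on the highest levels was not tested. The authors deposited TPM, FPKM scaled by length and aligned bases, and coverage, the mean read depth over exons. These are not read counts, and no count model was used.

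Genes were matched between libraries by identifier. Genes with a mean TPM above 0.05 entered a limma fit (version 3.58.1, R 4.3.3) on log2(TPM + 1), with a trend in the prior variance and Benjamini-Hochberg adjustment over all 15107 genes; simulated data were used to test it. Other values were computed with Python 3.11.15, pandas 2.3.3 and scipy 1.17.1. Genes named were the 10 highest, the 4 with the largest change in each direction without overlap, the 3 nearest the threshold on each side, the 3 shortest, longest and steadiest, the 4 with the largest shift of rank within a condition, and the closest groups. Others on scaffolds 17, 29 and 33 and linkage group 7, and the partners in overlaps, were chosen after their values were seen. The rule for the set, the comparisons and the alternatives were chosen with earlier results of these data known. The gene lists by product were not run, since 0 of 23125 identifiers matched a name.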

Additional observations from a re-analysis of the deposited data

How the results depend on the processing

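The size of the set depended on the threshold, with 270 genes at 500 TPM, 31 at 2000 TPM, 164 at 1000 TPM in at least 1 library and 48 at an FPKM of 1000, while leaving out a library gave 104 to 109. The share of all TPM, 23.1% on average, was 20.1% by coverage times span and 17.5% without the 10 highest genes, with 22.8% to 23.7% when a library was left out. The difference in share of −0.889 percentage points turned to 0.507 without vitamin C replicate 1 and ranged from −2.29 to 0.507 over the libraries left out. No dominant gene was called in limma under any of the 16 alternatives, whose lowest adjusted p ranged from 0.0661 to 0.896. The median change of −0.03 was −0.12 to 0.05 when a library was left out and −0.08 to 0.004 under other scalings, so its sign was not stable. The changes of the 8 genes named for them kept their sign in each of 15 alternatives, but 5 of them moved in size by over 1.5 times when a library was left out, by up to 2.61 times for the gene on linkage group 7 from 745056. Requiring an overlap of 50% of the shorter model left 5 overlapping genes. Without scaffolds 29 and 33, an alternative chosen after seeing the data, 4 dominant genes lay near another.

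With the replicate number as a block, 0 dominant genes were called, with a lowest adjusted p of 0.313, while over all genes 43 were higher and 85 lower. The differences between replicates correlated at −0.26 across genes between the conditions, so the crossed pairing was added after seeing the data, with 0 dominant genes called and 100 higher and 225 lower over all genes. Both fits leave 1 residual degree of freedom per gene, and the samples share only a number. Over all genes, 7 higher and 7 lower were called, against 13 and 11 at a mean TPM of at least 1, 7 and 3 without a filter, 5 and 3 without the trend, and 0 and 0 with any library left out. The parts of depth and of the spread between the 2 libraries per condition were not told apart.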
